A study of Mus musculus with 75 samples.

Results

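Blood-forming cells with 1 Kmt2c allele deleted were compared with wild-type cells in 4 sorted populations of 8-week-old mice at once, with 1 difference fitted for all 4. The comparison used 32 of the 75 libraries of the series: 16 labelled het and 16 labelled wt, with 4 of each in HSC (haematopoietic stem cells), HPC (haematopoietic progenitor cells), pGM (pre-granulocyte-monocyte progenitors) and GMP (granulocyte-monocyte progenitors). All het columns of the table of untreated cells, and all wt columns of the same populations, were taken, and no expression value was used to choose them. Het libraries have the genotype Kmt2c f/+; Vav-Cre, ko libraries Kmt2c f/f; Vav-Cre, and wt libraries are labelled wild type, with no Cre named. Vav-Cre expresses the Cre recombinase throughout the blood system, so the lost allele and the presence of Cre cannot be told apart in het against wt. The 16 untreated ko libraries are given beside the others for reference. The labels do not say whether replicates are separate animals, or whether 1 number in 2 populations marks the same animal. The p-values therefore measure only the spread between these libraries, which may be technical in part. Sex-linked genes differed between wt replicate numbers, as given below.

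Kmt2c (also called Mll3) encodes a histone methyltransferase that places a methyl group on lysine 4 of histone H3, mainly at enhancers, inside a large complex that it shares with partner proteins. The human gene lies in a chromosome region that is often lost in myeloid leukaemia, mostly from a single chromosome, so that the cells keep the other copy. In blood, stem cells give rise to multipotent progenitors, which give rise to granulocyte-monocyte precursors and other lineages.

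The 32 libraries held 13.3 to 18.8 M reads. Levels are in CPM, the usual scale of reads relative to library size, after TMM scaling. The populations carried the markers of their labels in both genotypes. Procr and Slamf1, genes of stem cells, were highest in HSC, Flt3 in HPC, and the granule genes Mpo and Elane in GMP, where Procr stood at 1.37 CPM in wt and 1.68 in het against 137 and 161 in HSC. Xist, made from the inactive X chromosome of females, was above 10 CPM in 9 of 16 wt and in 2 of 16 het libraries, and every one of those 11 also held Y-linked reads. Summed Y-linked CPM (Ddx3y, Eif2s3y, Kdm5d and Uty) had a median of 145 in wt and 184 in het. The part of sex in the differences below was not tested beyond the alternatives named below.

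Kmt2c itself was lower in het, as a check of the labels. In HSC, Kmt2c stood at 58.9, 41.9, 48.7 and 58.2 CPM in wt and at 39.3, 34.2, 33.5 and 36.9 CPM in het. In GMP the wt libraries had 19.9, 18.1, 13.9 and 25.4 CPM and the het libraries 11.3, 13.01, 12.1 and 13.5 CPM. The groups did not overlap in these 2 populations, whereas in HPC (28.4 to 54.9 CPM in wt, 22.7 to 41.02 in het) and pGM (32.8 to 39.5 in wt, 18.8 to 41.7 in het) they did. The shared log2 fold change of Kmt2c was -0.47 ± 0.10 (SE; edgeR quasi-likelihood, Benjamini-Hochberg adjusted p = 0.0237), and its means in wt, het and ko were 37.1, 27.2 and 11.5 CPM. The gene (chromosome 5, 25271798 to 25498783 on GRCm38, minus strand) is counted whole, and the sources used here do not name the deleted exons. The call was lost in 19 of 55 alternative settings, with an adjusted p of 0.365 where the counts of each genotype and number were summed over populations.

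Across the genome few genes differed between het and wt. Of 14639 genes tested, 40 were called at an adjusted p under 0.05, which is 0.273%: 11 were higher in het (0.0751%) and 29 lower (0.198%). The lower genes included Cd96, Gata3, Hemgn and Mmrn1, the MHC class II gene H2-Ab1 and the haem-degrading enzyme gene Hmox1, and the higher genes included Sva, Gsta4 and Commd10. The median log2 change over all genes tested was 0.00793. At an unadjusted p under 0.05 there were 1488 genes. The mean of 39 of the 40 called genes differed the same way in all 4 populations, as did that of 2932 of all 14639, and Mmrn1 was the exception. Wt and het libraries did not overlap in at least 1 population for 36 of the 40 genes (11.9% of all genes tested), in at least 2 for 23 (0.799%), in at least 3 for 5 (0.0478%) and in all 4 for 2, Sva and Dock9 (0.0137%). Dock9, named after its values were seen, encodes an activator of the small GTPase Cdc42. The same values gave the calls and the overlaps, so nothing is read from these shares. In simulated counts with the spread of these libraries, 71% of genes changed by a log2 of 0.5 and 97% of those changed by 1 were recovered. The changed genes were drawn above a floor of mean level, and the libraries were simulated as independent. The shares therefore do not hold for genes near 0, or where libraries of 1 number are tied. With 100 genes changed at each size, more genes passed than the 40 called here. That makes the adjusted threshold easier to pass, so the shares may be too high for this comparison.

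The number called depended on how libraries of 1 number are treated, and the 40 calls treat libraries of different populations as independent. Sex-linked genes followed the number in part: Xist was above 10 CPM in all 4 populations for wt numbers 2 and 3, and Y-linked CPM was under 1 in all 4 for ko numbers 1 and 4, whereas Xist was above 10 CPM in 2 populations for het number 2 and in 1 for wt number 4. Of the correlations between libraries of 1 genotype and number in 2 populations, 18 of 48 lay above 0.1, among them all 6 of het number 4. Summing the counts of each genotype and number over the populations, which leaves 4 wt against 4 het, called 3 genes (Sva, Cd96 and Tnfsf8). A random effect for genotype and number kept 24 of the 40 among 31 calls and lost Kmt2c, Lhcgr, Slc27a6 and 7 others of the lower genes, a covariate of Y-linked expression kept 10, and the fit of libraries with Xist under 10 CPM, added after seeing the data, called only Sva. Omitting a single library left 23 to 48 calls, with 23 without GMP wt replicate 4 and without HPC wt replicate 4, and 26 without HPC het replicate 1 and without HPC wt replicate 2. Omitting wt number 2, 3 or 4 in all populations left 16, 22 and 23. Without pGM 7 genes were called, without HPC 11 and without HSC 19. DESeq2 called 116. Sva was called in every one of the 55 settings, and 20 of the 40 genes in every omission of 1 library.

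**Figure D1:**
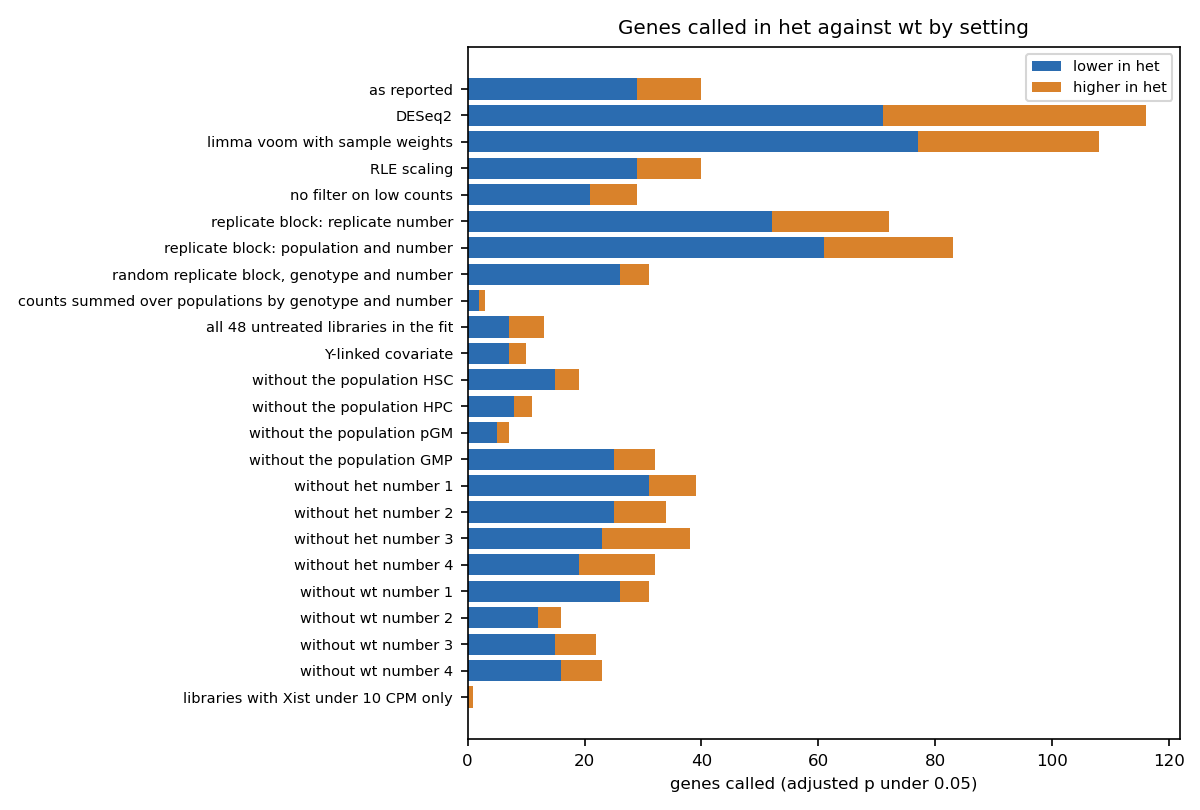
Number of genes called in het against wt (x axis, adjusted p under 0.05) as reported and under alternative settings (y axis), split into genes lower (blue) and higher (orange) in het. The bars run from 1 gene with low-Xist libraries to 116 with DESeq2, against 40 as reported.

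Several genes lower in het encode surface and lineage proteins of early blood cells. Cd96, an immunoglobulin-family receptor known from T and NK cells and from stem cells, stood in HSC at 31.3, 32.5, 31.6 and 30.5 CPM in wt and 18.2, 19.9, 15.8 and 11.3 CPM in het. In HPC it stood at 54.4, 67.4, 47.3 and 42.9 CPM in wt and 23.9, 24.4, 31.5 and 30.4 CPM in het. In pGM the wt range was 29.1 to 39.9 CPM and the het range 14.6 to 23.04. Wt and het libraries did not overlap in these 3 populations, while in GMP het replicate 2 (4.56 CPM) was above the highest wt library (4.53 CPM). The shared log2 change of Cd96 was -0.88 ± 0.13 (SE; edgeR adjusted p = 0.000282), and its means in wt, het and ko were 30.5, 16.3 and 4.23 CPM. Cd96 lost its call in 1 of 55 settings. In libraries of many cells, fewer cells that make a transcript and less of it per cell cannot be told apart.

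Gata3, a zinc-finger transcription factor of T cells and stem cells, stood in HPC at 28.7, 36.6, 37.05 and 40.9 CPM in wt and 15.8, 14.4, 15.1 and 15.4 CPM in het. In HSC its levels were 74.9 to 105 CPM in wt and 63.7 to 73.7 in het, and in GMP it was below 1 CPM in all 8 libraries. The HPC and HSC groups did not overlap, and the shared change was -0.75 ± 0.15 (adjusted p = 0.0152). Hemgn, which encodes a nuclear protein of blood progenitors and erythroid cells, stood in HSC at 42.1, 42.6, 44.1 and 56.5 CPM in wt and 23.7, 27.6, 33.6 and 30.01 in het. Its groups overlapped in HPC, pGM and GMP, and the shared change was -0.61 ± 0.11 (adjusted p = 0.00435). Mmrn1, which encodes multimerin, a protein stored in platelet granules, stood in HPC at 21.96, 26.95, 26.6 and 50.02 CPM in wt and 10.7, 11.3, 20.7 and 15.9 in het. In pGM its values were 7.83, 14.7, 6.4 and 9.47 CPM in wt and 5.82, 2.24, 2.17 and 2.31 in het. These 2 populations had no overlap, and in GMP Mmrn1 was near 0 in both groups; the shared change was -1.03 ± 0.19 (adjusted p = 0.00516). Cd180, a Toll-like receptor homologue of B cells and myeloid cells, had a shared change of -0.75 ± 0.15 (adjusted p = 0.0131).

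The ko libraries were lower than the het libraries for Cd96, Gata3, Hemgn, Mmrn1 and Cd180. The ko, het and wt comparisons share libraries, so their values are only set side by side. In ko against wt 5.43% of 15110 genes were called (2.16% higher, 3.28% lower), and in ko against het 1.59% (0.49% higher, 1.1% lower). Ko minus het was -1.99 ± 0.16 (adjusted p = 4.59e-13) for Cd96, -1.02 ± 0.19 (adjusted p = 0.000838) for Gata3 and -0.98 ± 0.15 (adjusted p = 3.13e-05) for Hemgn, each an edgeR log2 change ± SE. It was -1.76 ± 0.35 (adjusted p = 0.00223) for Mmrn1 and -1.66 ± 0.19 (adjusted p = 2.9e-08) for Cd180. For Gdf3, a ligand of the TGF-beta family, it was -0.51 ± 0.22 (adjusted p = 0.426), with mean levels of 31.8, 15.3 and 9.15 CPM in wt, het and ko. Among called genes outside the naming rule, picked after their values were seen, mean levels in wt, het and ko were 69.9, 44.7 and 23.9 CPM for Aqp9, a water and glycerol channel. They were 67.6, 52.9 and 31.1 CPM for Gpr65, an acid-sensing receptor. Other called genes did not step down from het to ko. Means in wt, het and ko were 1156, 735 and 855 CPM for Tuba4a and 403, 306 and 331 for Serinc3. They were 121, 97.7 and 102 CPM for H2-Q6 and 44.9, 28.6 and 28.8 for Gm45837. Ko minus het was also not called for Aoah (-0.05 ± 0.33), Lhcgr (-0.19 ± 0.33) and Hmox1 (-0.18 ± 0.26).

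**Figure D2:**
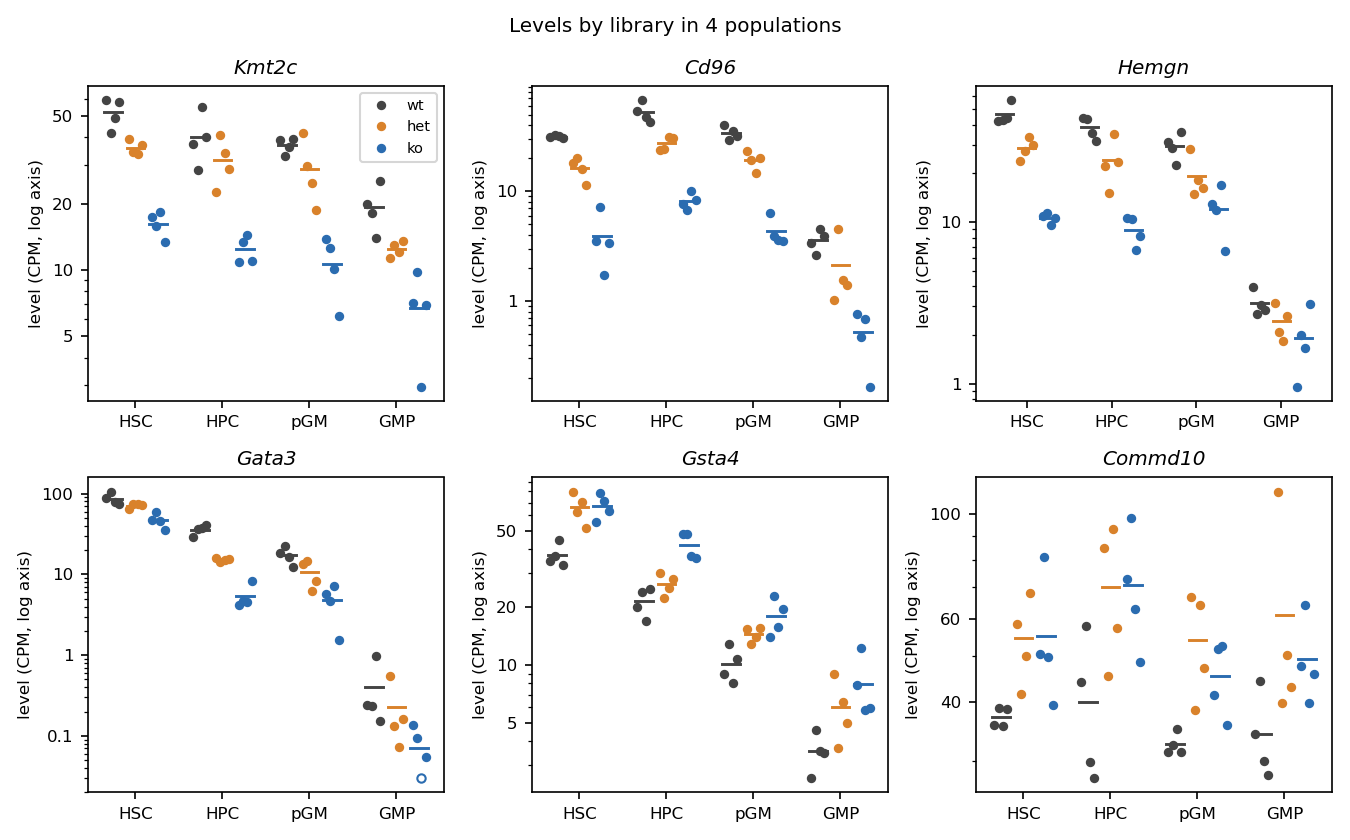
Level (CPM, log axis) of 6 genes in each library of the 4 populations (x axis), wt grey, het orange and ko blue; points are libraries, lines are means of 4, and an open circle marks a library at 0. In HSC, Cd96 lies at 30.5 to 32.5 CPM in wt libraries, 11.3 to 19.9 CPM in het libraries and 1.73 to 7.15 CPM in ko libraries, while Gsta4 and Commd10 are higher in het than in wt.

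Genes of immune function were also among the lower ones. H2-Ab1, the beta chain of an MHC class II molecule, stood in HSC at 98.8, 129.5, 102 and 59.4 CPM in wt and 55.8, 42.2, 41.4 and 56.4 in het, with no overlap. Its shared change was -0.72 ± 0.15 (adjusted p = 0.0237), and ko minus het was 0.10 ± 0.18 (adjusted p = 0.979). Tnfsf8, the CD30 ligand, stood in HPC at 10.1, 8.71, 7.65 and 6.83 CPM in wt and 2.13, 1.27, 3.57 and 3.25 in het, again without overlap. Its shared change was -1.58 ± 0.34 (adjusted p = 0.0308). Aoah, a lipase that inactivates bacterial lipopolysaccharide, was highest in GMP, at 14.9, 24.02, 24.7 and 29.2 CPM in wt and 6.71, 8.18, 15.2 and 6.26 in het. In GMP 3 of the 4 het libraries lay below every wt library, and the shared change was -1.60 ± 0.24 (adjusted p = 0.00032).

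Hmox1, haem oxygenase, stood in HSC at 40.1, 86.4, 47.7 and 52.9 CPM in wt and 6.12, 26.5, 30.4 and 24.1 in het, and in HPC at 35.2, 67.8, 33.2 and 45.96 CPM in wt and 9.64, 6.35, 30.7 and 23.1 in het. The groups did not overlap in either, and the shared change was -0.99 ± 0.22 (adjusted p = 0.0425), a call lost in 34 of 55 settings. Hmox1 is also high in macrophages, which a sort can carry along. In the list of 20 macrophage and dendritic cell genes, 17 were tested, Hmox1 alone was called, and 13 of 17 had a change below 0. The summed level of that list ran from 116 to 439 CPM in wt (median 199) and from 71.7 to 341 CPM in het (median 190). Those ranges pool the 4 populations, and the sums include Hmox1. In HSC alone the sums were 116, 220, 192 and 178 CPM in wt and 71.7, 107, 145 and 141 in het. In HPC alone they were 180, 279, 197 and 176 CPM in wt and 105, 107, 246 and 187 in het. Median levels in wt and het were 31.4 and 10.1 CPM for Hmox1, 24.7 and 14.3 for the iron exporter gene Slc40a1, 5.38 and 2.65 for Spic, a transcription factor of iron-recycling macrophages, and 5.21 and 2.76 for the complement gene C1qb. They were 19.005 and 15.2 CPM for the haemoglobin scavenger receptor gene Cd163, 11.8 and 9.06 for Vcam1 and 76.5 and 81.1 for Cd68, and none of these 6 genes beside Hmox1 was called. Siglec1, Marco and Batf3 had a median of 0 in both genotypes. The part of such cells in the Hmox1 difference was not tested.

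The called gene with the largest difference upwards was Sva, seminal vesicle antigen, known from male accessory glands. Sva had 0 reads in 14 of the 16 wt libraries, 1 read in HPC wt replicate 4 and 3 reads in pGM wt replicate 2. All 16 het libraries held 17 to 54 reads, or 0.906 to 3.11 (median 1.55) CPM, and all 16 ko libraries 15 to 49 reads, or 0.807 to 3.78 (median 1.48) CPM. No het or ko library overlapped a wt library, and the edgeR adjusted p of het against wt was 1.68e-12; no fold is given against a group at or near 0. Ko minus het was 0.04 ± 0.24 (adjusted p = 0.998). Het and ko libraries both carry Vav-Cre.

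The other genes higher in het act in several parts of the cell. Gsta4, a glutathione transferase that acts on products of lipid peroxidation, stood in HSC at 34.8, 37.1, 44.6 and 33.1 CPM in wt and 79.6, 62.5, 70.7 and 51.9 in het, without overlap. Its shared change was 0.59 ± 0.11 (adjusted p = 0.00511). Commd10, a member of the COMM-domain family of endosomal sorting proteins, stood in pGM at 31.3, 32.3, 35.04 and 31.2 CPM in wt and 66.8, 38.4, 64.1 and 47.2 in het. The groups did not overlap there or in HSC, and the shared change was 0.73 ± 0.13 (adjusted p = 0.004). Hmga2, a DNA-bending chromatin protein known from fetal stem cells, stood in pGM at 16.8 to 21.3 CPM in wt and 24.9 to 27.6 in het, and the change was 0.44 ± 0.10 (adjusted p = 0.0308). Changes were also called for Cntln (0.70 ± 0.13), which encodes a centriole protein, Gcc2 (0.50 ± 0.12), a Golgi protein, and Ktn1 (0.48 ± 0.11), a membrane anchor of kinesin. Utp14a (0.40 ± 0.09) and Cd3eap (0.39 ± 0.09) both act in making ribosomal RNA, and Cox6b2 (0.30 ± 0.07) is a cytochrome c oxidase subunit; their adjusted p were 0.0237, 0.0466 and 0.042. Hmga2, Gcc2, Ktn1, Utp14a, Cd3eap and Cox6b2 lost their calls with the random effect for genotype and number (adjusted p = 0.0514 to 0.171).

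**Figure D3:**
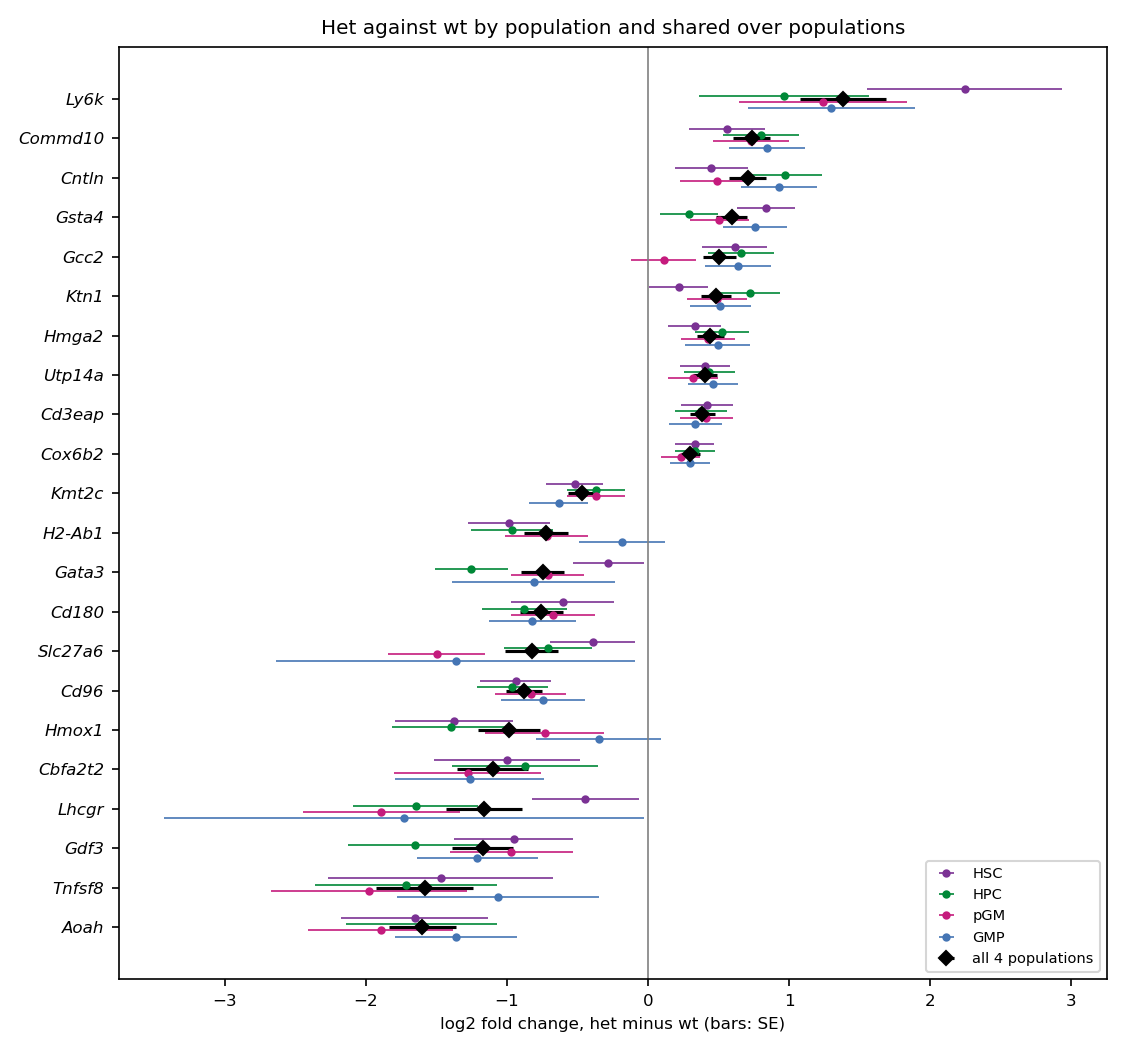
Log2 fold change of het minus wt (x axis) for Kmt2c and the called genes chosen by size (y axis), fitted in each population (coloured circles) and shared over the 4 (black diamonds); bars are SE. Sva and Capn11, whose reads fall to 0, are left out, and the diamonds run from -1.60 for Aoah to 1.38 for Ly6k.

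For 3 called genes the libraries of a genotype fell apart by replicate number, for Cbfa2t2 and Ly6k only in part. Capn11, a testis calpain protease, had 0 to 14 reads in the het libraries and 0 to 131 in the wt libraries. In ko, replicate 1 of every population held 49 to 77 reads and the other 12 libraries at most 1. Its fitted het minus wt change, which depends on the prior count where libraries are at 0, was -4.42 ± 0.66 (adjusted p = 0.00032), and ko minus wt was -0.66 ± 0.76 (adjusted p = 0.755). Cbfa2t2, a transcriptional corepressor of the ETO family, stood in HPC at 64.6, 44.3, 96.1 and 76.3 CPM in wt and 14.9, 45.2, 79.8 and 15.5 CPM in het. The ko libraries there had 9.53, 77.3, 44.98 and 26.2 CPM. Het replicates 1 and 4 were below every wt library in all 4 populations, and het replicate 3 was within the wt range in HPC, pGM and GMP. Het replicate 2 was within the wt range in HPC and below every wt library in HSC, pGM and GMP. Among ko libraries, replicate 2 reached 171 CPM in HSC. The change of Cbfa2t2 was -1.10 ± 0.25 (adjusted p = 0.0481), lost in 44 of 55 settings. Ly6k, a surface protein of the Ly6 family, was highest among het libraries in replicate 1 within each of the 4 populations. The margin was narrow in pGM, with 61 reads in het replicate 1 and 65 in the deeper het replicate 3. Ly6k was 3.09 CPM in HSC het replicate 1 against 0.0538 to 0.422 in wt, with a shared change of 1.38 ± 0.30 (adjusted p = 0.0322). What the numbers stand for is not in the labels, and the part of single animals in these differences was not tested.

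**Figure D4:**
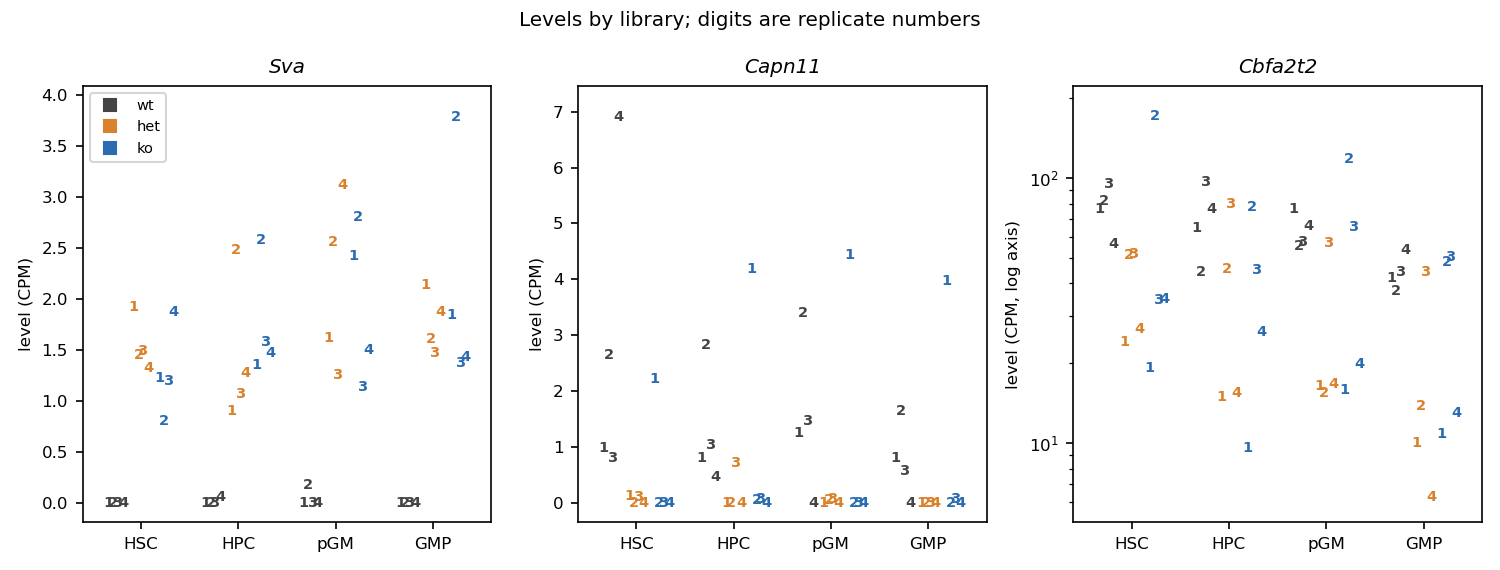
Level (CPM; log axis for Cbfa2t2) of Sva, Capn11 and Cbfa2t2 in each library of 4 populations (x axis), drawn as its replicate number, wt grey, het orange and ko blue. Sva is at or near 0 in every wt library and Capn11 is high in ko only in replicate 1. Cbfa2t2 is low in het replicates 1 and 4 of every population, and in het replicate 2 of pGM and GMP.

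The test for a het effect that differs between populations called 0 of 14639 genes in edgeR (0%), with 605 at an unadjusted p under 0.05, and DESeq2 called 1 (Sgce). Alone, HSC had 3 calls (0.0205%; 2 lower, 0.0137%), HPC 1 (0.00683%), pGM 1 (0.00683%) and GMP 3 (0.0205%), and Sva was among them in each. The others were Clec4e and Cd53 in HSC, both lower, and Sgce and Epsti1 in GMP, both higher; Epsti1 was named after its value was seen. Clec4e, a C-type lectin receptor for fungal and mycobacterial lipids, had log2 changes of -1.79 ± 0.27 in HSC and 0.08 ± 0.25 in GMP, and Cd53, a tetraspanin, had -0.88 ± 0.15 and 0.10 ± 0.14, of which only the HSC values passed the test. The adjusted p of the difference between populations was 0.917 for Clec4e and 0.917 for Cd53. Sgce, which encodes epsilon-sarcoglycan, had a log2 change of 2.01 in GMP, which passed the test, and -0.25 in HPC, which did not. Its level in GMP was low, with 20 to 80 reads in the het libraries and 2 to 20 in the wt libraries. In fits of the 8 libraries of 1 population alone, Cd53, Sgce and Epsti1 were not called, and Fam198b was called in HSC. Cd53 also lost its call without HSC het replicate 3 and without HSC wt replicate 3, and Sgce and Epsti1 theirs without GMP het replicate 1 and without GMP wt replicate 1. DESeq2 did not call Sgce in GMP. Values that missed the test were 1.97 in HSC for Fau, -3.03 in GMP for Msrb3 and 0.60 in GMP for Tnfsf10. Msrb3 was near 0 in GMP, with 0 or 1 reads in each het library and 4 or 5 in each wt library. Fau in HSC spread from 88 to 985 reads in het, against 120 to 222 in wt.

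Gene lists of pathways and lineages held few called members. Of 28 lists, 6 held 1 called gene each, all lower (Kmt2c, Gata3, Mmrn1, Hemgn, Hmox1 and H2-Ab1), and the other 22 held 0; over all genes 0.273% were called. The megakaryocyte-platelet list had a median log2 change of -0.35, with 17 of 22 members below 0, among them the integrin genes Itgb3 (-0.57 ± 0.14) and Itga2b (-0.44 ± 0.13), neither called. The median over all genes was 0.00793. The erythroid list had a median of 0.23, with 16 of 22 above 0, and its called member Hemgn went the other way. Macrophage and dendritic cell genes had a median of -0.52. The MHC class II list had a median of -0.06, with 11 of 14 below 0. Its members H2-Aa (-0.81 ± 0.22) and Cd74 (-0.50 ± 0.24) missed the test (adjusted p = 0.141 and 0.479), and H2-DMa had -0.02 ± 0.07.

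The DNA replication list had a median of -0.15 (23 of 31 below 0) and the mitosis list -0.07 (23 of 30 below 0). Medians were -0.08 for glycolysis, 0.05 for nuclear oxidative phosphorylation genes, -0.05 for interferon-stimulated genes and -0.16 for the IL-1 and IL-18 receptor family. Of the 23 histone H3 lysine 4 methyltransferases and partners, Kmt2c alone was called, and the list median was -0.02. Cdkn2c, an inhibitor of cyclin-dependent kinases, was closest to a call among the lists without one, at 0.49 ± 0.12 (adjusted p = 0.0547). The members with the smallest p in those 22 lists had log2 changes of -1.83 (Col1a2) to 0.81 (Cr2) and adjusted p of 0.0547 to 0.811. The lists of mature B and plasma cells (13 of 14 members tested) and of mature T and NK cells (11 of 20 tested) held 0 called genes. Medians were 0 in both genotypes for 3 of the 14 and 8 of the 20 members, Ms4a1, Cd3e and Cd8a among them. Other members were present, with median levels in wt and het of 838 and 730.3 CPM for Nkg7, 168 and 170.0 for Cd79b, 58.6 and 56.4 for Lat and 43.1 and 40.6 for Lck. Jchain reached 326 CPM in 1 library, with medians of 1.51 and 0.753 CPM.

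**Figure D5:**
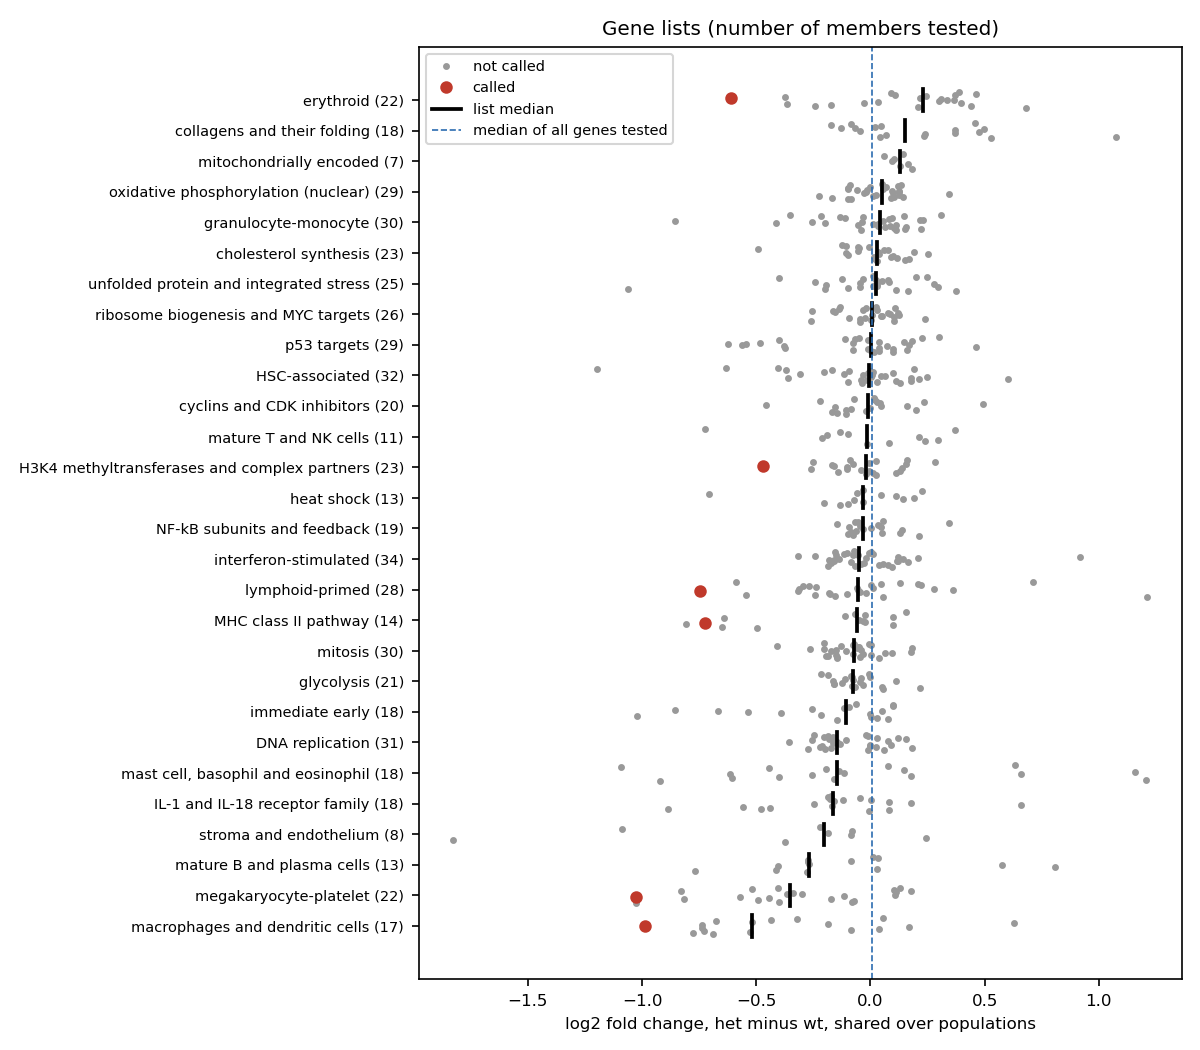
Log2 fold change of het minus wt shared over populations (x axis) for the tested members of 28 gene lists (y axis, number tested in brackets); grey points were not called, red points were called, black bars are list medians and the dashed line is the median of all genes tested. Red points stand in 6 lists, 1 in each.

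Of a panel of 25 haematopoietic genes chosen with earlier results known, Mmrn1, Hemgn and Gata3 were called, against 0.273% of all genes. The other 22 had log2 changes of -1.07 (Fam198b) to 0.48 (Gpx8), of which 19 lay below 0. Of all 14639 genes, 7041 lay below 0. Because of how the panel was chosen, nothing is read from these counts. Stem cell regulators had values of -0.04 ± 0.08 for Hlf and 0.06 ± 0.14 for Mecom. The myeloid peroxidase gene Mpo had -0.11 ± 0.21, the cytokine receptor gene Flt3 -0.02 ± 0.18, the surface genes Slamf1 -0.37 ± 0.47 and Cd48 -0.04 ± 0.13, and the mast cell protease gene Cpa3 -0.16 ± 0.17. The direction of Mecom, Mpo, Flt3, Slamf1 and Cd48 flipped under some settings. Receptor genes had values of -0.59 ± 0.20 for S1pr1 (adjusted p = 0.306), -0.97 ± 0.26 for P2ry10 (0.119) and -0.44 ± 0.15 for Il1r1 (0.311). Mean levels of S1pr1, the sphingosine phosphate receptor, in wt, het and ko were 23.6, 14.1 and 3.77 CPM. Vav1, whose promoter drives the Cre, had -0.10 ± 0.10 (adjusted p = 0.769).

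Called genes were spread over the genome. Within 20 Mb of Kmt2c, 206 genes were tested and Kmt2c alone was called (0.485%), against 0.273% of all genes. The largest share was on chromosome 18, with 3 of 345 tested (0.87%). Chromosome 17 held 5 called genes of 752 tested (0.665%), all lower: H2-Q6, H2-Ab1, Ubd, Capn11 and Lhcgr. Nothing is read from these shares. Lhcgr, the luteinising hormone receptor gene, was expressed mainly in HSC, at 61.8, 61.3, 59.9 and 50.2 CPM in wt and 18.1, 45.98, 56.9 and 49.8 in het, with a change in HSC of -0.44 ± 0.38, and HSC het replicate 1 was the lowest library. Lhcgr stood at 2.69 to 9.06 CPM in wt and 0.868 to 2.12 in het in HPC, and at no more than 3.05 CPM in pGM. The changes there were -1.65 ± 0.44 and -1.89 ± 0.56, and the shared change, the value that was called, was -1.16 ± 0.27 (adjusted p = 0.0457). Reads of H2 genes can be shared between close paralogs, so H2-Q6 and H2-Ab1 are uncertain to that extent. Slc27a6, a fatty acid transporter, had a change of -0.82 ± 0.19 (adjusted p = 0.0457).

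The genes called in het were also measured in the libraries of the other experiment of the series, which shares no library with het against wt and has no het group. It holds HSC and HPC of 13 wt and 14 ko libraries from mice given PBS or 0.5 µg interleukin 1 for 3 days. The comparison was chosen after the het calls were seen. In ko against wt, fitted over the 4 combinations of population and treatment, 33 of the 40 genes had the sign they had in het. Of the 40, 21 were called, all with that sign, and 4.21% of the 17511 genes tested were called. The 21 include Kmt2c, which is the gene deleted in ko, and Sva, which is present in every ko library. The share of all genes that keep their sign was not counted. One library labelled wt (HSC wt IL1 replicate 1) goes against its label. Kmt2c stood at 13.9 CPM there, at 30.6 to 72.3 CPM in the other 12 wt libraries and at 12.6 to 25.2 CPM in the 14 ko libraries. Sva stood at 1.83 CPM there and at 0 in the other 12 wt libraries. All 27 libraries carry the cell type label HPCs, and HSC and HPC are told apart by their titles. Without the library that goes against its label, 35 genes kept the sign and 22 were called, against 5.38% of 18169 genes.

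Cd96 had a log2 change of -3.13 ± 0.28 (adjusted p = 4.57e-08) in ko against wt of that experiment, Hemgn -1.55 ± 0.14 (adjusted p = 2.68e-08), Gata3 -1.11 ± 0.17 (adjusted p = 9.93e-05) and Mmrn1 -2.30 ± 0.30 (adjusted p = 1.89e-05), each ± SE from edgeR. Gsta4 had 0.67 ± 0.16 (adjusted p = 0.00995), Commd10 0.51 ± 0.14 (adjusted p = 0.0329) and Hmox1 -1.27 ± 0.29 (adjusted p = 0.00814). Sva was between 0.863 and 1.99 CPM in all 14 ko libraries. Of the genes higher in het, Sva, Gsta4 and Commd10 alone were called there. Ktn1 (0.001), Utp14a (0.04), Cd3eap (0.10) and Cntln (0.13) lay near 0. Cbfa2t2 had the opposite sign there, at 0.50 ± 0.32 (adjusted p = 0.49), and Capn11 stood at -1.57 ± 1.23 (adjusted p = 0.606). The sign was also opposite, without a call, for Hmga2 (-0.27), Gcc2 (-0.23), Tuba4a (0.11), Gm45837 (0.09), H2-Q6 (0.01) and Serinc3 (0.007). H2-Ab1, at -0.21 ± 0.17 (adjusted p = 0.605), was not called. Without that library the log2 changes were -3.26 (adjusted p = 1.37e-11) for Cd96, -1.63 (adjusted p = 5.22e-10) for Hemgn, -1.20 (adjusted p = 4.55e-06) for Gata3, -2.45 (adjusted p = 2.64e-07) for Mmrn1 and 0.76 (adjusted p = 0.000942) for Gsta4. They were 0.55 (adjusted p = 0.0206) for Commd10, -1.34 (adjusted p = 0.00478) for Hmox1, 0.51 (adjusted p = 0.495) for Cbfa2t2, -1.24 (adjusted p = 0.691) for Capn11 and -0.29 (adjusted p = 0.376) for H2-Ab1. These are ko and not het libraries, so they give no measurement of the loss of a single allele.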

How the data were processed

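Gene-level counts deposited by the authors were used as they are. The aligner was STAR 3.0.4 and the counter featureCounts 1.4.5, per the submitters' processing notes. Neither build nor strandedness is stated in those sources, so antisense and overlapping genes cannot be separated. GENCODE M21 (GRCm38) gave symbols and positions for 40340 of 41388 mouse gene IDs, and IDs outside it took 0.143% of reads. Libraries were grouped by their labels.

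Het and wt were compared with edgeR 4.0.16 (R 4.3.3) quasi-likelihood tests with population as a block, TMM scaling, filterByExpr (minimum count 10, minimum total 15) and a robust fit. Calls were made where the Benjamini-Hochberg adjusted p lay under 0.05. The ko comparisons used the same model on all 48 untreated libraries, and the interleukin 1 libraries, with a table of their own, a model with population and treatment as a block. The fit was tested on simulated data. Alternatives used DESeq2 1.42.0 and limma 3.58.1, other scaling and filters, replicate blocks and left-out libraries. The members, gene lists and rule for named genes were chosen with earlier results of these data known. The rule takes Kmt2c and Vav1, up to 12 called protein-coding genes each way by size (at least 2 CPM, the same direction in all 4 populations), the list members with the smallest p, a panel, 6 genes of the population test and the sex-linked genes. Same-numbered wt and het libraries of a population correlated above 0.1 in 5 of 16 pairs. The main fit did not treat numbers as pairs, and some alternatives used them as blocks.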

Additional observations from a re-analysis of the deposited data

Results flagged for a closer look

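In Kmt2c and the 23 called genes chosen by size, 192 groups of 4 libraries were checked for a library whose gap to the nearest of the other 3 passed Dixon's critical value, and 21 had one; chance gives about 1 in 20. Sva was 0.0588 CPM in HPC wt replicate 4 (others 0) and 0.173 CPM in pGM wt replicate 2 (others 0). Ly6k was 3.09 CPM in HSC het replicate 1 (others 0.401 to 0.698) and 4.37 CPM in HPC het replicate 1 (others 1.2 to 1.51). Commd10 was 112 CPM in GMP het replicate 1 (others 39.7 to 50.3). Hmga2 was 37.4 CPM in HPC het replicate 2 (others 26.6 to 28.4) and 27.6 CPM in pGM het replicate 3 (others 24.9 to 25.03). Utp14a was 24.6 CPM in HPC het replicate 4 (others 33.03 to 33.5). Cd3eap was 43.4 CPM in pGM wt replicate 4 (others 38.5 to 39.1). Cox6b2 was 57.9 CPM in HPC wt replicate 1 (others 41.02 to 43.4). Capn11 was 0.715 CPM in HPC het replicate 3 (others 0). Lhcgr was 50.2 CPM in HSC wt replicate 4 (others 59.9 to 61.8) and 0.079 CPM in GMP het replicate 1 (others 0). Cbfa2t2 was 56.9 CPM in pGM het replicate 3 (others 15.4 to 16.7). Cd96 was 4.56 CPM in GMP het replicate 2 (others 1.03 to 1.55). Slc27a6 was 12.02 CPM in HPC wt replicate 3 (others 9.47 to 9.89), 0.241 CPM in GMP wt replicate 1 (others 0) and 0.0736 CPM in GMP het replicate 3 (others 0). Gata3 was 63.7 CPM in HSC het replicate 1 (others 72.7 to 73.7) and 0.988 CPM in GMP wt replicate 3 (others 0.155 to 0.241). H2-Ab1 was 27.3 CPM in GMP wt replicate 1 (others 18.6 to 19.8). At levels near 0 such gaps rest on a few reads.

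A human gene entry in the table of this mouse series held 266 reads in pGM het replicate 1, against 0 to 4 in the wt libraries.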

How the results depend on the processing

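The 40 calls became 116 with DESeq2, 108 with voom and sample weights, 72 with the replicate number as a block and 83 with population and number as a block. They fell to 3 with summed counts, 13 with the ko libraries added, 10 with a covariate of Y-linked genes, and 19, 11 and 7 without HSC, HPC and pGM, and 1 with low-Xist libraries. RLE scaling gave 40, no filter 29, the random block 31 and omission of GMP 32. Omissions of a library or number gave 16 to 48. None of the 40 changed sign where it was tested, and Ubd was not tested without HSC or without HPC. Kmt2c missed the threshold at -0.47 (random block), -0.49 (summed), -0.47 (48 libraries), -0.48 (Y-linked covariate), -0.46, -0.50, -0.51 and -0.42 (without HSC, HPC, pGM, GMP) and -0.60 (low Xist), and omissions gave -0.55 to -0.42. The causes were not tested, beyond the smaller number of libraries where some were left out.

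DESeq2 called 1 gene for the difference between populations, and 22, 6, 83 and 5 in HSC, HPC, pGM and GMP. A fit of the 8 libraries of a population alone called 3 in HSC (Clec4e, Fam198b and Sva), 0 in HPC, 2 in pGM and 1 in GMP, and the replicate block in such fits 0 in each. Omissions gave 0 to 1 for the difference, 2 to 5 in HSC, 0 to 4 in HPC, 1 to 3 in pGM and 1 to 5 in GMP. Same-numbered wt and het libraries of a population correlated by -0.095 to 0.33. The main fit did not pair them, and whether a number ties wt to het libraries is not in the labels. Libraries of 1 genotype and number in 2 populations correlated by -0.055 to 0.29, and the random block and the sums treat them as tied.

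Direction flipped in 98 instances over 17 genes named by the rule that were not called, and these genes carry no direction. Ccr9 stood at 0.20 with DESeq2, 0.44 without HPC and 0.0711 without pGM. Cd48 stood at 0.0199 with voom, 0.0422 with summed counts, 0.0253 without HSC, 0.0216 without HPC and 0.16 with low-Xist libraries. Col4a1 stood at -0.0103 with summed counts. Fau stood at -0.16 without HSC. Fkbp10 stood at -0.26 with DESeq2, -0.0523 with the Y-linked covariate, -0.75 without HSC and -0.0271 with low-Xist libraries. Flt3 stood at 0.0102 with the random block, 0.36 with summed counts, 0.0968 without HSC and 0.20 without pGM. Gpx8 stood at -0.0318 with DESeq2 and -0.0937 with low-Xist libraries. Kdm5d stood at -0.00619 with the Y-linked covariate. Mecom stood at -0.0515 without HPC and -0.0964 with low-Xist libraries. Mpo stood at 0.13 with low-Xist libraries. Sgce stood at -0.0371 without GMP. Slamf1 stood at 0.055 with voom, 0.16 with the random block, 0.0151 with summed counts and 0.0678 without HPC. Tnfsf10 stood at -0.00712 with DESeq2, -0.12 with voom, -0.00525 with the number block, -0.0104 with the population and number block, -0.0861 with the random block, -0.12 with summed counts, -0.00694 with 48 libraries, -0.0379 with the Y-linked covariate, -0.0232 without HPC, -0.17 without GMP and -0.0467 with low-Xist libraries. Uty stood at -0.25 with the Y-linked covariate, -0.00684 without HSC and -0.0668 with low-Xist libraries. Vav1 stood at 0.0229 with low-Xist libraries. Xist stood at 0.57 with low-Xist libraries. Over omissions of a library or number the ranges were Ccr9 -0.42 to 0.0172, Cd48 -0.13 to 0.0681, Fkbp10 -0.14 to 0.38, Flt3 -0.0999 to 0.0914, Mecom -0.0035 to 0.17, Mpo -0.35 to 0.0395, Slamf1 -0.64 to 0.00715, Tnfsf10 -0.0654 to 0.0555, Vav1 -0.16 to 0.000555 and mt-Co1 -0.0417 to 0.38.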
